A study of Capra hircus with 36 samples.

Results

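The microRNAs miR-99a, miR-99b, miR-100, miR-125a and miR-125b form a pair of related seed groups that vertebrate genomes keep close together, and their levels were followed across 6 goat tissues. Members were chosen by name: every row of the deposited count tables that carried 1 of these 5 precursor names, either arm (5p or 3p), with or without a leading conserve-, and not among the rows for predicted miRNAs that have no established name. The rule found 12 of the 1391 miRNA rows. The family was selected on a known result as well as by name, since the lower spleen values of chi-miR-99a-5p and chi-miR-100-5p at high altitude had been seen beforehand, and for that reason spleen differences between altitudes are described here with no test. The other tissues came from the same goats as the spleens, so their results are not independent of that choice.

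Small RNA was sequenced from the spleen, lung, heart, liver, kidney and longissimus muscle of 6 adult female goats aged > 3 year by the labels. The high-altitude group was 3 goats of the Tibetan Goat population living at 3000 m, and the low-altitude group was 3 goats of the Chuandong White Goat population living at 600 m. By the sample names each goat gave all 6 tissues, which makes 36 libraries, with 3 goats per tissue and altitude. Every high-altitude goat belonged to the Tibetan Goat population and every low-altitude goat to the Chuandong White Goat population, so altitude and population cannot be told apart, and "altitude" below names the contrast of those groups.

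MicroRNAs are short RNAs that guide repression of messenger RNAs, chiefly through a short seed near the 5′ end. The miR-99a, miR-99b and miR-100 mature 5p strands share a seed and are known to repress MTOR and IGF1R, while miR-125a and miR-125b share a different seed and are the vertebrate counterparts of lin-4, the developmental timing microRNA of nematodes, with well studied roles in blood cell formation. In mammals a member of each seed group commonly sits in a single transcript with a let-7 gene, as in the miR-99a, let-7c and miR-125b cluster and in the miR-99b, let-7e and miR-125a cluster.

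The RefSeq annotation of the ARS1.2 goat assembly, a later release than the ARS1 assembly the authors mapped to, matched 4 of the 5 precursors by symbol. MIR125B, MIRLET7C and MIR99A were neighbours on chromosome 1 inside the long non-coding RNA LOC102176916. MIR99B lay beside MIRLET7E on chromosome 18. MIR100 lay on chromosome 15 within the long non-coding RNA LOC108637679, near SORL1. MIR125A was the precursor with no matching symbol.

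Total mature miRNA counts ran from 7108635 to 14407748 per library, and levels are given as reads per 1000000 of that total (RPM). A count of 3 corresponded to 0.208 to 0.422 RPM, a limit that covers counting error only, because reads were not tagged by molecule. The tissue labels were checked against lists of known tissue miRNAs, each summed per library. The heart list (miR-208a, miR-208b and miR-499) stood at 17104 to 24101 RPM in heart and at no more than 4836 RPM elsewhere. Striated muscle miRNAs (miR-1, miR-133a and miR-206) reached 92801 to 288574 RPM in heart and muscle against at most 5079 RPM in other tissues. For liver, miR-122 stood at 6201 to 179959 RPM against at most 209 RPM elsewhere, and for lung the ciliated-cell list (miR-34b, miR-34c and miR-449a) stood at 2997 to 12910 RPM against at most 56.4 RPM. Leukocyte miRNAs (miR-142, miR-150, miR-155 and miR-223) were higher in 5 of 6 spleen libraries than in any other tissue. The exception was the spleen of high-altitude goat 1, at 17706 RPM against a maximum of 22825 RPM in liver. The kidney list, of which 2 of 3 names were found (miR-194 and miR-204), did not mark kidney: it read 1703 to 5334 RPM there and up to 23811 RPM in liver. The kidney label therefore has no support from its list, and it is used as given.

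Of the 12 rows, 6 had a mean of at least 100 RPM in at least 1 tissue and are described in full: the 5p strands of miR-99a, miR-99b, miR-100, miR-125a and miR-125b, and chi-miR-125b-3p. Counts were concentrated in a few rows. chi-miR-125b-5p held 26.7% of all counts of the family, chi-miR-125a-5p 26.4%, chi-miR-100-5p 25.0% and chi-miR-99a-5p 17.2%. A further 4.30% belonged to chi-miR-99b-5p, which was read in 13 of 36 libraries. The 3p strands made up little of the total, with chi-miR-125b-3p at 0.316%, chi-miR-99a-3p at 0.145% and each remaining row under 0.006%.

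Over both altitudes, heart carried the most of the family, at 11.6% of counts on average. Among high-altitude goats alone the mean share was 5.74% in lung and 5.20% in heart, and without miR-99b 4.19% and 4.94%. chi-miR-100-5p averaged 37938 RPM in heart, then 13581 in liver, 8298 in spleen, 7865 in lung, 7010.0 in kidney and 5119 in muscle (n = 6 goats each). The order for chi-miR-125b-5p was heart at 35927 RPM, kidney at 11686, liver at 11031, muscle at 9101, spleen at 8933 and lung at 6794. chi-miR-99a-5p averaged 17623 RPM in heart, 12948 in kidney, 12799 in liver, 5729 in spleen, 4008 in muscle and 3771 in lung. Over both altitudes these 3 miRNAs shared heart as the tissue of highest mean, and the rest of their orders differed. Among high-altitude goats alone, lung came first for chi-miR-99a-5p (4047 RPM against 3475 in heart), though not without goat 3. For chi-miR-100-5p and chi-miR-125b-5p the places below heart also differed between altitudes. Lung came second for them among high-altitude goats (9212 and 7502 RPM) and last among low-altitude goats (6517 and 6086 RPM). Spleen came last for both among high-altitude goats (1349.6 and 3073 RPM), and at low altitude liver followed heart for both (24618 and 17271 RPM). For chi-miR-125a-5p the means were 22534 RPM in heart, 21039.5 in kidney, 17446 in lung, 9728 in spleen, 9332 in liver and 5323 in muscle. Over both altitudes chi-miR-125b-3p averaged from 206.2 RPM in heart to 143.3 in spleen, but heart ranked first of the 6 tissues among high-altitude goats (339 RPM) and last among low-altitude goats (73.1 RPM). The first place of heart was not secure for every member: ranked by medians, kidney came first for chi-miR-125a-5p and liver for chi-miR-99a-5p, and without low-altitude goat 1 kidney also came first for chi-miR-125a-5p. The place of muscle rests on the scale: the summed family averaged 23842 RPM there, the lowest of the 6 tissues, but 43474 counts per 1000000 on TMM effective library sizes, above lung, liver and spleen.

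Tissues were compared without spleen, whose values chose the family, a choice made after seeing the data in place of a test over all 6 tissues. Over heart, kidney, liver, lung and muscle, 6 of the 12 rows differed by the edgeR quasi-likelihood F test at an adjusted p under 0.05, with Benjamini-Hochberg adjustment over 1391 miRNAs, of which 32.5% were called. The adjusted edgeR p was 9.19e-08 for chi-miR-125b-5p, 4.27e-06 for chi-miR-99a-3p, 1.05e-04 for chi-miR-125a-5p, 0.00119 for chi-miR-100-5p and 0.0338 for chi-miR-99a-5p. Also called was conserve-chi-miR-125b-5p (0.00964), which was at 0 in most libraries and was not called by DESeq2 or without high-altitude goat 1. The call of chi-miR-99a-5p was not secure, since leaving out any of high-altitude goats 1, 2 and 3 or low-altitude goats 1 and 2 ended it, at an edgeR adjusted p of 0.0626 to 0.242, as did summing copies (0.0575), and it was 0.0269 without low-altitude goat 3. That of chi-miR-99a-3p ended when edgeR scaled by library size only (0.344). The sparse chi-miR-99b-5p missed the threshold (0.0509 by edgeR) and passed it without high-altitude goat 1 (0.0486) or 2 (0.0127), with library size only (0.0253) and with filterByExpr, a filter on low counts (0.0467). It did not pass with each goat as a block (0.457 by edgeR), by the DESeq2 likelihood ratio test (0.647) or with copies summed (0.0514 by edgeR). Leaving out high-altitude goat 3 or any low-altitude goat also kept it above the threshold, at an edgeR adjusted p of 0.0857 or more. Over all alternatives 4 to 7 rows were called, beside 23.0 to 69.5% of the miRNAs tested. Among these, the DESeq2 test covers tissue and tissue by altitude jointly, whereas the edgeR test compares tissue means averaged over altitudes. Between neighbours in the order of means of the 5 tissues, 3 of 20 pairs reached 0.03125, the smallest p that a two-sided exact sign-flip permutation over 6 goats can give, and after adjustment over the 20 pairs those stood at 0.208. They were heart over liver for chi-miR-100-5p, and heart over kidney for chi-miR-125b-5p and chi-miR-99a-5p, each higher in 6 of 6 goats. The other 17 neighbouring pairs, which include each of the 4 pairs of chi-miR-125a-5p, had a larger p in this test. It pools both altitudes, so the spread between the 6 goats includes the altitude difference. Some pairs turned with altitude: for chi-miR-125a-5p, kidney lay above lung in every low-altitude goat and below it in every high-altitude goat. For chi-miR-100-5p, liver lay above lung in every low-altitude goat and below it in every high-altitude goat. The place of spleen in each order is a description.

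**Figure D1:**
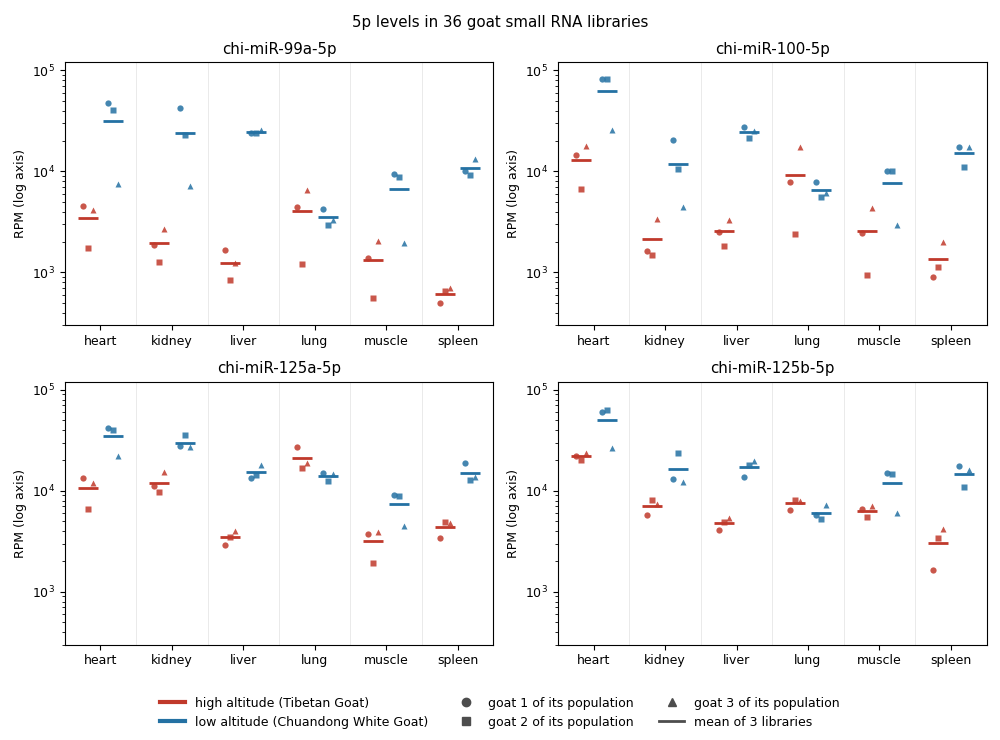
Level of 4 miRNAs in each of 36 libraries, in RPM on a log axis, by tissue on the horizontal axis, with red for high altitude, blue for low altitude, a marker shape for each goat and a bar for the mean of 3 libraries. Red points lie below blue points in liver, spleen, heart and kidney in each panel, and in lung the groups overlap except for chi-miR-125a-5p, where red lies above blue.

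Summed over its rows, the family took a smaller share of all counts at high altitude in heart, kidney, liver and spleen. In liver it held 1.27, 1.13 and 1.41% of counts in high-altitude goats 1, 2 and 3 and 8.67, 7.78 and 8.86% in low-altitude goats 1, 2 and 3. Hearts gave 5.88, 3.54 and 6.19% in the high-altitude group, against 23.2, 22.4 and 8.24% in the low-altitude group. Kidney libraries of the high-altitude goats read 2.06, 2.25 and 2.91%, and those of the low-altitude goats 10.3, 9.27 and 5.13%. In these 3 tissues no high-altitude goat reached the lowest of the low-altitude goats, and low-altitude goat 3 was the lowest of its group in heart and in kidney. The libraries were made from whole tissue, so fewer cells of a type and less RNA per cell cannot be told apart. Spleen shares came to 0.753, 1.11 and 1.19% in high-altitude goats against 6.38, 4.88 and 6.58% in low-altitude goats, again with no overlap. Muscle shares were 1.43, 0.960 and 1.75% and 4.37, 4.24 and 1.56%, and lung shares 6.83, 2.87 and 7.53% and 4.61, 2.65 and 3.14%. The groups overlapped in muscle, through low-altitude goat 3, and in lung, where the high-altitude mean was the larger.

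Group means of that share were 1.27% ± 0.137 against 8.43% ± 0.580 in liver (SD, n = 3), a log2 ratio of high over low of -2.73. The log2 ratio was -1.78 in heart, -1.78 in kidney, -1.29 in muscle and 0.73 in lung, and -2.55 in spleen. With 3 goats against 3, a two-sided exact permutation test has 20 assignments and can give no p under 0.1, the value in heart, kidney and liver. By group means the seed groups had unequal folds, a difference that was not tested. The 5p strands of miR-99a, miR-99b and miR-100 together were 12.2-fold lower at high altitude in liver, 4.96-fold lower in heart and 7.68-fold lower in kidney, where the fold without low-altitude goat 1 was 4.82. For the 5p strands of miR-125a and miR-125b the fold was 3.94 in liver, 2.60 in heart and 2.42 in kidney. In lung the miR-125 pair was higher at high altitude without overlap, at 3.37, 2.48 and 2.67% against 2.08, 1.77 and 2.17% of counts. The miR-99 and miR-100 group overlapped there, at 3.44, 0.363 and 4.85% in high-altitude and 2.499, 0.848 and 0.939% in low-altitude lungs. Its ratio of mean shares, low over high, was 0.496 in lung, 0.751 without high-altitude goat 3 and 0.310 without low-altitude goat 1. That ratio rests in part on miR-99b, which was at 0 in the lungs of high-altitude goat 2 and low-altitude goats 2 and 3. Taken alone, the low over high ratio in lung was 0.864 for chi-miR-99a-5p and 0.707 for chi-miR-100-5p.

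Among the 5 tested tissues, the ratio between group means was largest in liver for each of the 4 abundant 5p strands, although in RPM their group means lay farther apart in heart. In liver chi-miR-99a-5p stood at 1651, 844 and 1224 RPM in high-altitude goats 1, 2 and 3 and at 23782, 23724 and 25567 RPM in low-altitude goats 1, 2 and 3. For chi-miR-100-5p the liver levels were 2528, 1830.2 and 3273 RPM at high altitude and 27731, 21246 and 24876 RPM at low altitude. All 3 high-altitude livers lay far below all 3 low-altitude livers for both, and the goats within a group were close to each other. Liver chi-miR-125a-5p stood at 2909, 3494 and 3980.0 RPM at high and 13258, 14382 and 17967 RPM at low altitude. Likewise chi-miR-125b-5p read 4071, 4903 and 5397 RPM in the high-altitude livers and 13751, 18179.7 and 19882 RPM in the low-altitude livers. Neither overlapped between altitudes. By group means the 4 strands were 19.7-, 9.68-, 4.39- and 3.61-fold lower at high altitude, in the order miR-99a, miR-100, miR-125a and miR-125b.

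In the liver fit, the edgeR log2 fold change of chi-miR-99a-5p, high over low, was -4.10 (SE 0.51, n = 3 per group), with a Benjamini-Hochberg adjusted quasi-likelihood p of 0.0813. It was -3.08 (SE 0.50) for chi-miR-100-5p, -1.99 (SE 0.39) for chi-miR-125a-5p and -1.70 (SE 0.37) for chi-miR-125b-5p, with adjusted edgeR p of 0.147, 0.201 and 0.287. Calls required a log2 fold change of 1.5 or more in size together with an adjusted p below 0.05. By that rule edgeR called 0 of the 12 rows in liver, as it called 0% of 1391 miRNAs, while 4 rows had an unadjusted p under 0.05 (4.24% of 1391). DESeq2 called all 4 of these 5p strands (4.95% of the 626 miRNAs to which it gave an adjusted p), with an adjusted p of 9.25e-11 for chi-miR-99a-5p. Over 15 alternatives the adjusted p of that miRNA ran from 9.25e-11 to 0.491. Of the 7 family rows with a liver mean of at least 10 RPM, 5 lay lower at high altitude in every library, against 15.1% of 284 miRNAs, and the fifth was chi-miR-125b-3p. In the same libraries the erythroid list (2 of 3 names found, miR-144 and miR-486; most abundant row conserve-chi-miR-486-5p) was also lower at high altitude, at 343, 6388 and 4285 RPM against 9104, 9959 and 8658 RPM. The heart list was higher there, at 288, 228 and 188 RPM against 18.5, 146 and 19.9 RPM, and the part of either list in the family's difference was not tested.

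Heart held the highest levels of the family at low altitude, and the 4 abundant 5p strands did not overlap there between altitudes. The gap was narrow for some: the lowest low-altitude heart over the highest high-altitude heart was 1.66 for chi-miR-99a-5p and 1.45 for chi-miR-100-5p. It was 1.67 for chi-miR-125a-5p and 1.12 for chi-miR-125b-5p. chi-miR-99a-5p stood at 4508, 1736 and 4181 RPM in high-altitude hearts 1, 2 and 3 and at 47577, 40230.0 and 7506 RPM in low-altitude hearts 1, 2 and 3. Heart chi-miR-100-5p read 14545, 6711 and 17674 RPM at high altitude and 81774, 81335 and 25591 RPM at low altitude. Low-altitude goat 3 stood between the high-altitude goats and its own group for both, so the groups were apart but unevenly so. For chi-miR-125a-5p the hearts read 13348, 6522 and 11888 RPM at high and 41523, 39686 and 22236 RPM at low altitude. chi-miR-125b-5p stood at 21871, 19995 and 23911 RPM and 60657, 62362 and 26767 RPM. These did not overlap either, and low-altitude goat 3 was again nearest to the high-altitude group. By means the 4 strands were 9.14-, 4.85-, 3.26- and 2.28-fold lower at high altitude, in the order miR-99a, miR-100, miR-125a and miR-125b. As each goat was left out, the chi-miR-99a-5p fold ran from 6.87 without low-altitude goat 1 to 12.6 without low-altitude goat 3.

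The edgeR log2 fold change in heart was -3.44 (SE 0.80) for chi-miR-99a-5p, -2.51 (SE 0.60) for chi-miR-100-5p and -1.91 (SE 0.41) for chi-miR-125a-5p. Their Benjamini-Hochberg adjusted p by the edgeR quasi-likelihood test was 0.317, 0.340 and 0.262. In heart edgeR called 0 of the 12 rows (0% of 1391 miRNAs), 6 rows had an unadjusted p under 0.05 (6.4% of 1391), and DESeq2 called 4 rows (7.33% of 491): the 5p strands of miR-99a, miR-99b, miR-100 and miR-125a. Of the 6, the 4 abundant 5p strands were lower at high altitude. The others were both strands of miR-99b, which were higher at high altitude and at 0 in all low-altitude hearts. Without high-altitude goat 2, edgeR called 1 row, chi-miR-99b-5p, which in heart was read in high-altitude goats 1 and 3 and nowhere else. Of 7 family rows with a heart mean of at least 10 RPM, 4 were lower at high altitude without overlap, against 10.3% of 242 miRNAs. A single row, chi-miR-125b-3p, was higher without overlap, against 24.4%. Smooth muscle miRNAs (miR-143 and miR-145, both found, most abundant row chi-miR-143-3p) lay the other way in heart, at 181237, 116128 and 189879 RPM at high and 69412, 76287 and 59273 RPM at low altitude. The leukocyte list was also higher at high altitude, at 3509, 2007 and 2819 RPM against 1926, 1886 and 1532 RPM, as were the kidney, ciliated-cell and epithelial lists at sums of no more than 230.5 RPM. Their part in the family's difference was not tested.

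In kidney, too, the 4 abundant 5p strands were lower in each high-altitude goat than in any low-altitude goat. Kidney chi-miR-99a-5p stood at 1868, 1267 and 2681 RPM at high altitude and at 41922, 22741 and 7206 RPM at low altitude. chi-miR-100-5p read 1620.5, 1494 and 3364 RPM in high-altitude and 20551, 10629 and 4402 RPM in low-altitude kidneys. Both were lower in every high-altitude kidney, and low-altitude goat 3 was several-fold under goat 1 of its group. Kidney chi-miR-125a-5p was 11139, 9646 and 15375 RPM at high and 27521, 35322 and 27234 RPM at low altitude. chi-miR-125b-5p was 5782, 8015 and 7459 RPM and 13022, 23738 and 12104 RPM in the same order. The miR-125 strands were likewise lower in every high-altitude kidney, by 2.49- and 2.30-fold on means for miR-125a and miR-125b, against 12.4-fold for chi-miR-99a-5p and 5.49-fold for chi-miR-100-5p. Without low-altitude goat 1 the fold was 7.72 for chi-miR-99a-5p and 3.48 for chi-miR-100-5p, and without low-altitude goat 3 it was 16.7 and 7.22.

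For the kidney contrast, edgeR gave a log2 fold change of -3.83 (SE 1.09) for chi-miR-99a-5p and -2.67 (SE 1.004) for chi-miR-100-5p, with Benjamini-Hochberg adjusted p of 0.733 and 0.959. It called 0 of the 12 rows (0% of 1391 miRNAs), 3 rows had an unadjusted p under 0.05 (4.6% of 1391), and DESeq2 called chi-miR-99a-5p alone (3.17% of 757), at an adjusted p of 0.0360 where 15 alternatives spanned 0.0360 to 1.0. Of 7 rows with a kidney mean of at least 10 RPM, 4 were lower at high altitude without overlap, against 9.19% of 283 miRNAs. The heart list, at 72.6, 62.8 and 170.3 RPM against 4.05, 32.0 and 10.6 RPM, and the striated muscle list (3 of 3 names found, most abundant row chi-miR-133a-3p over all libraries), at 767, 667 and 1058 RPM against 101, 304 and 304 RPM, were higher in high-altitude kidneys, and their part was not tested. Across 308 miRNAs with a mean of at least 10 RPM, the kidney profile of low-altitude goat 3 correlated at 0.834 to 0.850 with its own group and at 0.868 to 0.902 with the high-altitude kidneys. In muscle, where the same goat also stood apart, it correlated at 0.856 to 0.880 with its own group and at 0.771 to 0.782 with the high-altitude muscles, and in heart at 0.884 to 0.914 and at 0.837 to 0.916. These are descriptions over miRNAs that are not independent. A mix-up of labels in the heart, kidney or muscle libraries of low-altitude goat 3 was not tested.

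In muscle the altitudes overlapped for chi-miR-99a-5p, chi-miR-100-5p and chi-miR-125b-5p through low-altitude goat 3, without which these were lower at high altitude without overlap, while chi-miR-125b-3p, chi-miR-99a-3p and chi-miR-99b-5p overlapped with or without that goat. Muscle chi-miR-99a-5p stood at 1373, 561 and 2040.2 RPM at high altitude and 9431, 8711 and 1931 RPM at low altitude. chi-miR-100-5p was 2439, 937 and 4299.8 RPM in high-altitude and 10076, 10018 and 2943 RPM in low-altitude muscle. In both cases low-altitude goats 1 and 2 stood above all high-altitude goats and goat 3 stood among them. chi-miR-125a-5p read 3729.8, 1909 and 3881 RPM and 9054, 8918 and 4446 RPM, the sole 5p strand of the family without overlap in muscle. For chi-miR-125b-5p the values were 6559, 5491 and 7034 RPM and 14999, 14535 and 5987 RPM, with low-altitude goat 3 below 2 of the 3 high-altitude goats. By means chi-miR-99a-5p was 5.05-fold lower at high altitude, from 3.92 without high-altitude goat 2 to 6.92 without high-altitude goat 3. The edgeR quasi-likelihood test called 0 of the 12 rows in muscle (0.0719% of 1391 miRNAs), 1 row had an unadjusted p under 0.05 (6.18% of 1391), and DESeq2 called 0 (5.49% of 546). Of 7 rows with a muscle mean of at least 10 RPM, 1 was lower at high altitude without overlap, against 16.9% of 249 miRNAs, which is near the background. Smooth muscle miRNAs were higher in high-altitude muscle, at 55425, 23134 and 51272 RPM against 17681, 21418 and 22452 RPM. Epithelial miRNAs were higher too, at 20.96, 76.6 and 29.0 RPM against 14.1, 5.32 and 15.6 RPM. The striated muscle list was lower, at 238615, 247352 and 182844 RPM against 258372, 277703 and 288574 RPM, and the part of these lists was not tested.

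In lung the high-altitude means were the larger for each of the 4 strands, for chi-miR-99a-5p and chi-miR-100-5p through high-altitude goat 3 alone. Lung chi-miR-125a-5p stood at 27323, 16676 and 18744 RPM at high altitude and 15029, 12417 and 14488 RPM at low altitude. All 3 high-altitude lungs lay above all 3 low-altitude lungs. chi-miR-125b-5p was 6382, 8155 and 7969 RPM at high and 5765, 5297 and 7195 RPM at low altitude. chi-miR-99a-5p was 4426, 1222 and 6491 RPM and 4269, 2939 and 3276 RPM, and chi-miR-100-5p was 7789.8, 2405 and 17442 RPM and 7897, 5540.1 and 6115 RPM. These 3 overlapped between altitudes, and high-altitude goat 2 had the lowest chi-miR-99a-5p and chi-miR-100-5p of all 6 lungs. By means the high-altitude lungs were 1.496-fold higher for chi-miR-125a-5p, 1.41-fold for chi-miR-100-5p, 1.23-fold for chi-miR-125b-5p and 1.16-fold for chi-miR-99a-5p. Without high-altitude goat 3 the direction turned for 2 of them, to 1.28-fold lower for chi-miR-100-5p and 1.24-fold lower for chi-miR-99a-5p. Among high-altitude goats, lung ranked first of the 6 tissues for chi-miR-125a-5p, whichever goat was left out, and for chi-miR-99a-5p except without goat 3, when heart came first. Among low-altitude goats heart ranked first for both. No row passed in lung: edgeR called 0 of 12 (0% of 1391), 0 rows had an unadjusted p under 0.05 (4.74% of 1391), and DESeq2 called 0 (3.74% of 589). Of 8 rows with a lung mean of at least 10 RPM, 1 was higher at high altitude without overlap, chi-miR-125a-5p, against 5.28% of 284 miRNAs, and 1 was lower, chi-miR-125b-3p, against 14.8%.

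Marker lists also differed between altitudes in lung. Smooth muscle miRNAs were lower at high altitude, at 150251, 154842 and 253929 RPM against 291233, 302558 and 265108 RPM. The heart, liver and kidney lists were higher, the largest of them the kidney list at 231, 304 and 172 RPM against 116, 150.1 and 144.3 RPM. Heart-list sums were 38.1, 20.3 and 105 RPM against 5.37, 18.4 and 10.5 RPM, and miR-122 sums were 72.7, 19.7 and 129.96 RPM against 13.0, 10.05 and 5.69 RPM. The part of these lists in the lung values was not tested. The endothelial list (miR-126) and the mesenchymal list (miR-199a and miR-214) overlapped between altitudes in all 6 tissues, at overall means of 8269 RPM for chi-miR-126-3p and 4999 RPM for chi-miR-199a-3p. No row of any list was at 0 in all 36 libraries.

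Whether the altitude difference itself varied among tissues was tested over heart, kidney, liver, lung and muscle, a test added after the direction in lung had been seen. By the edgeR quasi-likelihood F test with 4 degrees of freedom, 0 of 12 rows had an adjusted p under 0.05 (0.288% of 1391 miRNAs did), while 4 rows had an unadjusted p under 0.05 (6.4% of 1391): the 5p strands of miR-99a, miR-100, miR-125a and miR-125b. The Benjamini-Hochberg adjusted edgeR p was 0.171 for chi-miR-125a-5p, 0.195 for chi-miR-99a-5p, 0.269 for chi-miR-125b-5p and 0.284 for chi-miR-100-5p. With each goat as a block the value for chi-miR-125a-5p was 0.0419 (0.359% of 1391 miRNAs were called), and the DESeq2 likelihood ratio test gave 0.0210 for chi-miR-125a-5p and 0.0312 for chi-miR-99a-5p (10.3% of 525 were called, so that 2 of 12 family rows are near the background). As each goat was left out, edgeR called 0 rows, 2 to 5 rows had an unadjusted p under 0.05 (2 without high-altitude goat 3, beside 4.96% of 1391, and 2 without low-altitude goat 2, beside 4.89%), and the smallest adjusted edgeR p of the family ran from 0.0679 to 0.774. In a fit without spleen it was 0.345. Lung was then set against each of the other 4 tested tissues for each of the 4 strands. These contrasts were likewise chosen with the direction in lung known. They come from the fit without goat as a block, although the tissues share goats, and no values from a blocked fit or with a goat left out are given. The contrasts all use the same lung libraries, and the 4 strands vary together, so they are not independent of one another. The high over low log2 ratio was larger in lung in all 16, by 1.499 to 4.96, and each had an unadjusted edgeR p under 0.05, as did 4.6% of 1391 miRNAs with a larger ratio in lung than in heart, 2.59% against kidney, 3.45% against liver and 5.97% against muscle. After Benjamini-Hochberg adjustment over 1391 miRNAs, 0 of the 16 passed (0.0719% of 1391 did against heart, kidney or liver each, and 1.01% against muscle), and the smallest adjusted edgeR p was 0.0587, for chi-miR-125a-5p in lung against heart.

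In spleen, where the family was chosen, the values are a description. Spleen chi-miR-99a-5p stood at 492, 649.5 and 698 RPM at high altitude and 10091, 9117 and 13326 RPM at low altitude. chi-miR-100-5p was 902, 1134 and 2012 RPM and 17259, 10945 and 17536 RPM. For both, all 3 high-altitude spleens lay below all 3 low-altitude spleens. The miR-125 strands, which are in the same libraries and so share the choice, read 3420.3, 4874 and 4770.2 RPM against 18681, 12877 and 13742 RPM for chi-miR-125a-5p. chi-miR-125b-5p read 1655, 3382 and 4182 RPM against 17503, 10770.3 and 16106 RPM. Neither overlapped. The fitted log2 ratio of high over low was -4.21 (SE 0.32) for chi-miR-99a-5p, -3.56 (SE 0.39) for chi-miR-100-5p, -2.35 (SE 0.37) for chi-miR-125b-5p and -1.86 (SE 0.29) for chi-miR-125a-5p. Of 8 rows with a spleen mean of at least 10 RPM, 4 were lower at high altitude without overlap, beside 14% of 285 miRNAs. Smooth muscle miRNAs were lower in high-altitude spleens, at 357292, 402152 and 369333 RPM against 415577, 568728 and 454538 RPM. The ciliated-cell list was higher, at 38.0, 47.0 and 41.2 RPM against 16.1, 14.8 and 18.2 RPM, and the part of either was not tested.

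The direction of the 4 abundant strands held in each tissue under TMM scaling, relative log expression size factors and library size alone, with no change of sign. Library size alone moved the median log2 fold change of all miRNAs with at least 10 RPM by 0.17 in heart, -0.11 in liver, -0.14 in lung and -0.14 in muscle relative to TMM. Under TMM, the median of the 4 strands minus the median of all such miRNAs was -2.45 in liver, -2.23 in heart, -1.87 in kidney, -1.34 in muscle and 0.80 in lung. Relative to that median under library size alone, it was -2.17 in heart, -2.51 in liver, 0.59 in lung and -1.36 in muscle.

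The make-up of the family differed between altitudes as well as its amount. How often such shares separate the altitudes in other groups of miRNAs was not computed. chi-miR-99a-5p made up a smaller part of the family at high altitude without overlap in heart, kidney, liver, muscle and spleen, with or without miR-99b in the sum. In lung the groups did not overlap with miR-99b in the sum and overlapped without it, at 9.60, 4.26 and 12.8% against 12.9, 11.1 and 10.4%. Over all rows, the mean chi-miR-99a-5p share of the family's counts was 6.44% at high against 15.9% at low altitude in heart, 7.97% against 26.4% in kidney and 9.70% against 28.9% in liver. In lung it was 6.45% against 10.3%, in muscle 9.03% against 18.2%, and in spleen 6.10% against 18.3%. The share of chi-miR-125b-5p was higher at high altitude without overlap in heart, kidney, liver and muscle, also with miR-99b left out. In kidney the nearest goats were almost level, at 25.63% in high-altitude goat 3 and 25.61% in low-altitude goat 2. The nearest in muscle were high-altitude goat 3 at 40.2% and low-altitude goat 3 at 38.5%. The most abundant member of a library at high altitude was chi-miR-125b-5p in 9 libraries, chi-miR-125a-5p in 8 and chi-miR-99b-5p in 1. At low altitude it was chi-miR-125a-5p in 7, chi-miR-125b-5p in 4, chi-miR-100-5p in 4 and chi-miR-99a-5p in 3 libraries.

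**Figure D2:**
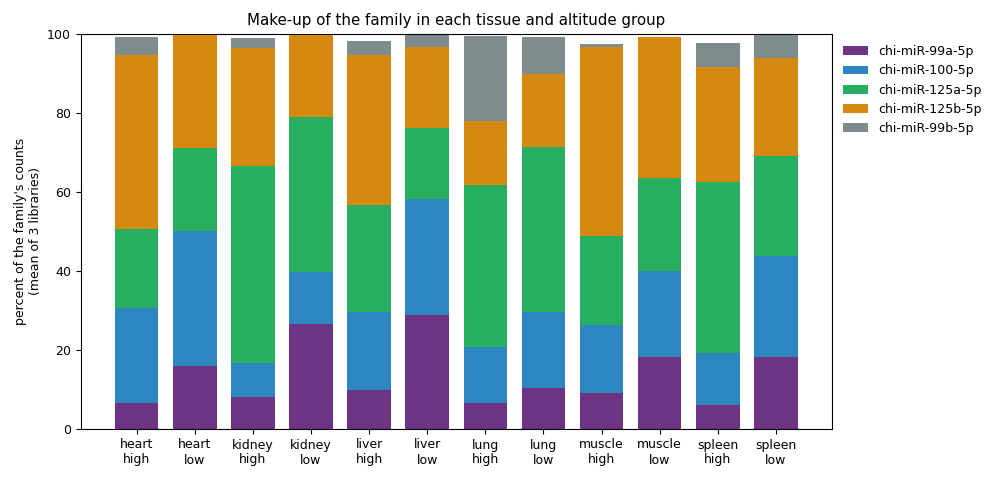
Percent of the family's counts held by each of 5 miRNAs, as stacked means of 3 libraries, for each tissue and altitude group on the horizontal axis, where the gap to 100 is the rest of the rows. The chi-miR-99a-5p segment at the foot of each bar is shorter at high than at low altitude in all 6 tissues, and in lung the groups overlap once miR-99b is left out of the sum.

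Ratios between members, which do not depend on library size, also differed between altitudes in some tissues. How often ratios between other miRNAs are free of overlap was not computed. In liver there were 3.98 reads of chi-miR-125b-5p per read of chi-miR-99a-5p at high altitude and 0.701 at low altitude, as geometric means of 3 goats. In kidney that ratio was 3.79 against 0.817, in heart 6.84 against 1.92 and in muscle 5.44 against 2.02, each without overlap and with an exact permutation p of 0.1, the smallest possible. Lung overlapped, at 2.28 against 1.75. The genes matched to their precursors by symbol are neighbours on chromosome 1, and other loci for these strands were not examined. Within the seed group of miR-99a and miR-100, reads of chi-miR-99a-5p per read of chi-miR-100-5p were lower at high altitude in kidney (0.920 against 1.93), in liver (0.483 against 0.995) and in muscle (0.543 against 0.811). Those 3 tissues did not overlap, whereas heart and lung did. Reads of chi-miR-125b-5p per read of chi-miR-100-5p were higher at high altitude without overlap in heart and liver, and overlapped in kidney, lung and muscle. Per read of chi-miR-125a-5p they were higher without overlap in heart, liver and muscle, and overlapped in kidney and lung.

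The 3p strand of miR-99a did not share the difference of its 5p strand. In liver, chi-miR-99a-3p stood at 38.5, 106 and 58.8 RPM at high altitude and 62.5, 47.0 and 59.3 RPM at low altitude. In heart it was 91.6, 129.9 and 80.0 RPM and 85.2, 97.6 and 106 RPM. The groups overlapped in these and in all other tissues, and high-altitude goat 2 had the highest chi-miR-99a-3p of its group in heart, kidney, liver, lung and muscle. The edgeR log2 fold change of chi-miR-99a-3p lay between -0.27 and 0.28 over the 5 tested tissues. The log2 ratio of 5p to 3p counts (with 1 added to each) of miR-99a was therefore lower at high altitude without overlap in heart, kidney and liver, and in spleen. It overlapped in muscle and in lung, where the high-altitude mean was the larger by 0.40. In liver the ratio was 5.42, 2.99 and 4.38 in high-altitude goats 1, 2 and 3 and 8.57, 8.98 and 8.75 in low-altitude goats 1, 2 and 3. Kidney ratios of the high-altitude goats were 5.36, 3.21 and 5.80, against 10.28, 8.41 and 5.84 in the low-altitude goats. Neither tissue overlapped, although in kidney the nearest goats, high-altitude goat 3 and low-altitude goat 3, were almost level.

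Over miR-99a, miR-100, miR-125a and miR-125b in the 5 tested tissues, the ratio was lower at high altitude without overlap in 9 of 20 combinations and higher in 1. Beside that, over all 829 combinations of tissue and precursor with both strands listed and a mean of at least 10 RPM, 16.6% were lower and 8.56% higher, and over the 461 of them in which the 5p strand was the larger, 17.6% and 7.81%. In the family the lower ones were miR-99a in heart, kidney and liver, miR-100 in heart and liver, miR-125a in heart, and miR-125b in heart, kidney and liver. Without low-altitude goat 3 the count was 15 lower and 2 higher, beside 22.2% and 13.3% of the 829, and without high-altitude goat 2 it was 9 lower and 4 higher, beside 23.9% and 14.8%. In the full data miR-125b in lung was the higher one, at 5.94, 5.61 and 6.23 against 4.98, 4.84 and 5.13. In spleen, given as a description, the ratio was lower at high altitude without overlap for all 4 precursors, beside 18.5% of 168. The 5p strand dominated everywhere: over the 36 libraries the log2 ratio ran from 1.52 to 10.28 for miR-99a, from 8.96 to 17.67 for miR-100, from 8.81 to 14.90 for miR-125a and from 3.16 to 13.02 for miR-125b. For miR-100 and miR-125a the 3p counts were at most 23 and 98, so their ratios carry a large counting error. The 5p and 3p names are those of the deposited tables, which hold no sequences. The study's primer list gives under the name chi-let-7a-3p a sequence that is the well-known 5p strand of let-7a, so at least that arm name departs from the usual one and no let-7a levels are given here. That list holds no member of the family, whose arm names could not be checked.

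**Figure D3:**
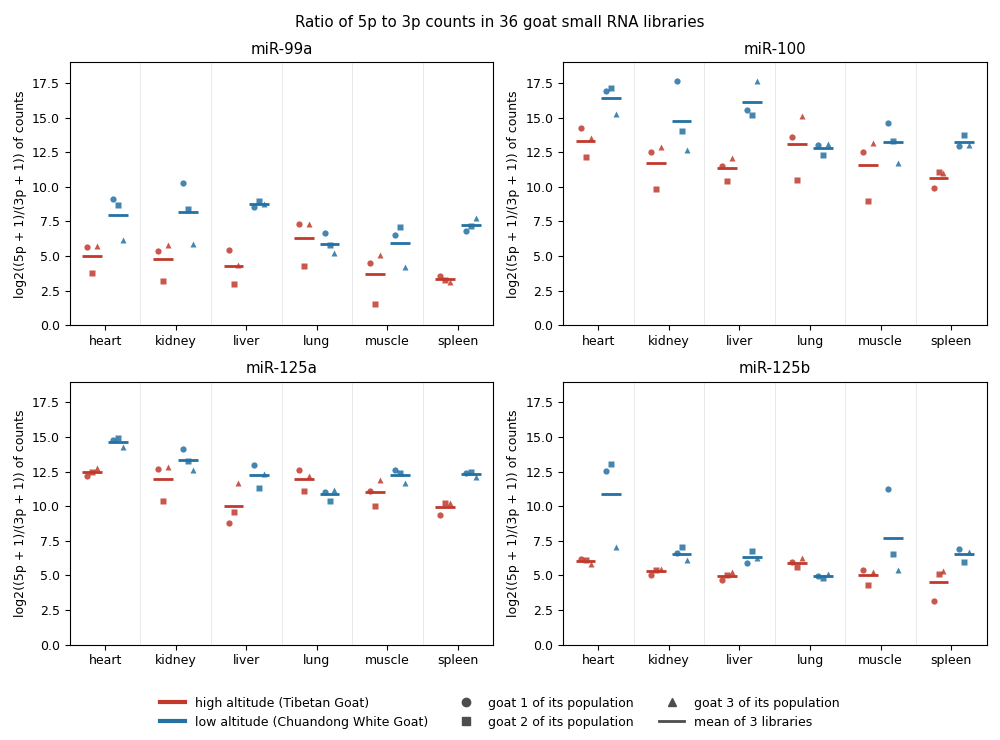
Log2 ratio of 5p to 3p counts, with 1 added to each, for 4 precursors in each of 36 libraries, by tissue on the horizontal axis, with red for high altitude, blue for low altitude, a marker shape for each goat and a bar for the mean of 3 libraries. For miR-125b, low-altitude hearts 1 and 2 and low-altitude muscle 1 stand far above the rest, at 12.53, 13.02 and 11.28.

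chi-miR-125b-3p had 3 libraries that stood apart. In heart its counts were 3720, 3545 and 5075 in the high-altitude goats, against 124, 80 and 2490 in the low-altitude goats. In muscle they were 2199, 3584 and 2311 and 73, 2136 and 1768. Low-altitude hearts 1 and 2 and low-altitude muscle 1 therefore held 124, 80 and 73 counts, while the lowest of the other 33 libraries held 928. In the same libraries chi-miR-125b-5p held 740731, 672231 and 183499 counts. The edgeR log2 fold change in heart was 2.15 (SE 1.23), with a Benjamini-Hochberg adjusted quasi-likelihood p of 0.777, and all 3 high-altitude hearts lay above all 3 low-altitude hearts. As each goat was left out, that log2 fold change ran from 1.57 to 4.93, the latter without low-altitude goat 3. In liver chi-miR-125b-3p was 162, 153 and 144.4 RPM at high and 234, 165 and 262 RPM at low altitude. In lung it was 104, 167 and 106 RPM and 183, 185 and 205 RPM. Both were lower at high altitude without overlap, by narrow margins, and the log2 fold changes were -0.41 (SE 0.45) in liver and -0.44 (SE 0.33) in lung. Kidney and spleen overlapped.

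miR-99b was either abundant or at 0. Both of its strands had counts in the same 13 libraries and were listed at 0 in the other 23. The files do not tell whether such a 0 means no reads or a miRNA that was not reported for that library, which bears on every tissue mean, share and range that includes miR-99b. The 13 with counts were 9 high-altitude and 4 low-altitude libraries, spread as 4 in spleen, 3 in lung, 2 in liver, 2 in heart and 1 each in kidney and muscle. In lung, chi-miR-99b-5p stood at 22186, 0 and 24536 RPM at high altitude and 12829, 0 and 0 RPM at low altitude. In spleen it was 750.2, 859 and 0 RPM and 0, 4851 and 4838 RPM. Libraries of a single tissue and altitude thus ranged from 0 to 24536 RPM, and the altitudes overlapped in all 6 tissues. In the lung of high-altitude goat 3 chi-miR-99b-5p was the most abundant member of the family, with 1.31 reads per read of chi-miR-125a-5p, the strand whose gene lies beside it in other mammals. That ratio was 0.118 in the muscle of high-altitude goat 2, the lowest of the 13. Where it had counts, its log2 ratio of 5p to 3p counts ran from 6.81 to 13.41. Counts of 0 beside high counts within a group were not limited to this member. Of 278 miRNAs with at least 1000 counts in some library, 53 combined a library at 0 and a library with at least 1000 counts in the same tissue and altitude, and chi-miR-99b-5p was the sole family row among them. Fold changes of miR-99b between altitudes rest on which libraries were at 0, and none is given.

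The remaining rows were sparse. chi-miR-100-3p had at most 23 counts and was at 0 in 2 libraries. Its counts in liver were 6, 11 and 6 in the high-altitude and 4, 3 and 0 in the low-altitude goats. The high-altitude livers were the higher, at a log2 fold change of 1.60 (SE 1.60) and a Benjamini-Hochberg adjusted edgeR p of 0.886, which at such counts is not a detectable difference. chi-miR-125a-3p had 10 to 98 counts and chi-miR-99b-3p at most 63. conserve-chi-miR-125a-5p was read in the spleen of high-altitude goat 1 alone, with 498 counts, and conserve-chi-miR-125b-5p in 3 lungs, with 319 counts at most.

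The let-7 genes that neighbour the family gave a different picture. chi-let-7c-5p, whose gene lies between MIR125B and MIR99A, stood in liver at 834, 1345 and 519.8 RPM at high altitude and 893, 851 and 1213 RPM at low altitude. In heart it was 395, 359 and 748 RPM and 551, 326 and 339 RPM. The groups overlapped in all 6 tissues, although the 5p strands named for the genes on either side of it were lower at high altitude in liver and heart. chi-let-7e-5p, whose gene lies beside MIR99B, was read in 33 libraries, which include all 3 low-altitude kidneys and others where miR-99b was at 0. Altitudes overlapped for it outside spleen, where the high-altitude goats read 725, 461 and 503 RPM and the low-altitude goats 324, 203.5 and 317 RPM. The symbol of let-7a lay on chromosome 5 beside MIRLET7B in ARS1.2, not beside MIR100. Each name was matched to a single symbol, and whether other loci also give let-7a or miR-125b strands was not examined. The miR-10 strands, related to miR-99 and miR-100 by a shifted seed, were abundant in kidney, where chi-miR-10b-5p averaged 314594 RPM. chi-miR-10b-5p overlapped between altitudes in all 6 tissues and chi-miR-10a-5p in all but spleen, where it was higher at high altitude.

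Across the 36 libraries the 4 abundant 5p strands varied together, with Pearson r of log2(RPM + 1) from 0.691 (chi-miR-125a-5p with chi-miR-125b-5p) to 0.918 (chi-miR-99a-5p with chi-miR-100-5p). These points share goats, tissues and library totals, so the values are descriptions. The 36 libraries, here and below, include the spleens, whose chi-miR-99a-5p and chi-miR-100-5p values chose the family. No correlation without spleen is given. chi-miR-125b-3p ran against them, at -0.28 to -0.36. Outside the family, among 301 miRNAs with a mean of at least 10 RPM, the pattern most like chi-miR-99a-5p was that of chi-miR-409-5p (r = 0.845), followed by chi-miR-224-5p (0.636) and chi-miR-24-3p (0.545). chi-miR-24-3p was also the nearest to chi-miR-100-5p (0.677) and second nearest to chi-miR-125a-5p (0.657), after chi-miR-30f-5p (0.719). For chi-miR-125b-5p the nearest were chi-miR-628-3p (0.712), chi-miR-24-3p (0.590) and chi-miR-30e-5p (0.587), and for chi-miR-99b-5p the nearest was chi-miR-143-3p at 0.469.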

How the data were processed

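Small RNA of 36 goat libraries, each from 1 tissue of 1 goat, was prepared with the Illumina TruSeq Small RNA kit and sequenced on an Illumina HiSeq instrument. The authors called bases with CASAVA 1.8, mapped filtered reads to the goat assembly ARS1 with Bowtie, assigned them to mature miRNAs with miRDeep2, and deposited a raw count per mature miRNA for each library, with no normalization. How reads that match several rows were shared among them is not known here, since the tables hold counts and no reads, and mature strands within each seed group are closely similar in sequence. The members, marker lists and tests were chosen with earlier results of these data known.

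Counts were divided by the library total (7108635 to 14407748) to give RPM, with 1 added before logs. Altitude was tested within heart, kidney, liver, lung and muscle with edgeR 4.0.16 in R 4.3.3 (TMM, quasi-likelihood test, all 1391 miRNAs, Benjamini-Hochberg), with calls at an adjusted p under 0.05 and a log2 fold change of 1.5 or more in size. The SE printed with a log2 fold change was derived from the fit, as the size of the fold change divided by the square root of the quasi-likelihood F statistic. Tissue was tested in 1 fit over the 30 libraries other than spleen, and tissue by altitude in 1 fit of 12 groups over 36 libraries, with contrasts that leave spleen out. The pipeline was tested on simulated data. Single values per library were compared by two-sided exact permutation, coded with NumPy 2.4.6. Fold changes are printed for members whose altitudes did not overlap and differed by a log2 of at least 1.5, with others named for their place in the family and chosen after their values were seen. Marker lists were summed over both arms. DESeq2 1.42.0, other scalings, filters and pseudocounts (0.5 and 5), summed arms or copies, and each goat left out were tried as alternatives.

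Same-numbered goats of the populations are different animals. Pairing was checked over 308 miRNAs after group means were removed: profiles of the same number correlated between altitudes at 0.353 to 0.513 in heart, at -0.173 to 0.315 in liver and lower in kidney, and tissues of 1 goat had a median r of 0.113 at high and 0.0352 at low altitude. With number as a replicate block, edgeR called 0 members in each tested tissue, as without it.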

Additional observations from a re-analysis of the deposited data

Results flagged for a closer look

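chi-miR-125a-5p was higher in all 3 high-altitude lungs than in all 3 low-altitude lungs, at a log2 fold change of 0.82, and lower without overlap in heart, kidney, liver and muscle. The difference among tissues was tested and did not pass, at an edgeR quasi-likelihood F test p of 0.171 after Benjamini-Hochberg adjustment, and it passed with each goat as a replicate block (0.0419) and by the DESeq2 likelihood ratio test (0.0210).

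chi-miR-125b-3p was higher at high altitude without overlap in heart, at a log2 fold change of 2.15 that ran from 1.57 to 4.93 as each goat was left out and rests on low-altitude hearts 1 and 2 (124 and 80 counts against 2490 in goat 3), and lower without overlap in liver (-0.41) and lung (-0.44). The adjusted p of the tissue by altitude F test in edgeR, by Benjamini-Hochberg, was 1.

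The log2 ratio of 5p to 3p counts of miR-125b was higher at high altitude in lung, by 0.94 between group means, and lower in heart, kidney and liver, each without overlap, and the difference between these tissues was not tested.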

How the results depend on the processing

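Of 1026 results recomputed under an alternative, 986 kept their direction and side of the threshold or moved by less than the spread between goats, 15 passed the threshold with the same direction, 21 moved further and 4 reversed. The main edgeR test called 0 family rows in each of the 5 tested tissues. In heart DESeq2 called 4 rows (7.33% of all miRNAs tested), of which chi-miR-99b-5p was higher at high altitude and at 0 in all low-altitude hearts, and the others were lower. Leaving out each goat in turn gave 0 to 1 with edgeR, the 1 being chi-miR-99b-5p without high-altitude goat 2 (0.431% of all). In kidney DESeq2 called 1 (3.17%). In liver the count was 4 with DESeq2 (4.95%), 2 with filterByExpr (1.32%), 2 with library size only (0.144%), 1 with arms summed (0.122%), 1 with the edgeR exact test (0.575%) and 1 with a single fit over 36 libraries (0.503%). The cause of these differences between methods was not tested. Log2 fold changes that reversed were those of chi-miR-125b-3p in heart (-1.39) and chi-miR-100-3p in liver (-3.02) with arms summed, by construction, since the 5p strand makes up most of such a sum. The log2 ratio of group means in lung ran from -0.35 to 0.95 for chi-miR-100-5p and from -0.31 to 0.64 for chi-miR-99a-5p as each goat was left out, and was negative without high-altitude goat 3.

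On TMM effective library sizes the summed family averaged 43474 counts per 1000000 in muscle and its log2 difference in liver was -2.52. The number of precursor and tissue combinations with a lower 5p to 3p ratio at high altitude ran from 9 to 15 as each goat was left out, with 15 without low-altitude goat 3 (22.2% of all combinations), and the number with a higher ratio from 1 to 4, with 4 without high-altitude goat 2 (14.8%). The tissue by altitude test and its alternatives were chosen after seeing the data. So were the altitude difference of the family sum on other scales and the order on other scales. The same holds for the tissue tests without spleen, the sums without miR-99b and the lung ratios with each goat left out. For the tissue by altitude test, goat as a replicate block gave 1 called row (0.359% of all miRNAs tested) and the DESeq2 likelihood ratio test 2 (10.3%), against 0. With 3 goats per group no exact permutation p can fall under 0.1, and at these depths rows with fewer than about 100 counts, such as chi-miR-100-3p and chi-miR-125a-3p, carry a large counting error.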
